A study of Mus musculus with 12 samples.

Results

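The genes described here are 31 enzymes and helper proteins that break down the branched-chain amino acids leucine, isoleucine and valine and the propionate that arises from them. They were taken from the arrays as every probe set whose single gene symbol in the platform annotation was one of the 31, out of 18193 genes on the array. The 31 genes had 60 probe sets, of which 54 reached the detection threshold, a log2 signal of 5.77, on at least 3 of the 12 arrays. Of the 31 genes, 30 could be tested. Abat, the 4-aminobutyrate transaminase, which also acts on a valine semialdehyde, could not, because each of its 2 probe sets reached the threshold on 1 array.

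The cells were 3T3-L1 adipocytes, fat cells made in culture from a mouse fibroblast line by 48 h of insulin (5 µg/ml), dexamethasone (1 µM) and the phosphodiesterase inhibitor IBMX (0.5 mM), and used at days 8 to 10. All groups spent 12 h in serum-free medium with 0.2% bovine serum albumin before treatment. The solvent DMSO made up the control group, and the treated groups were exposed to berberine, an alkaloid of plants such as barberry, at 5 µM for 3, 6 or 12 h. Each of the 4 groups had 3 arrays. The labels do not give the duration of the DMSO incubation, so in the comparisons with DMSO an effect of berberine and one of time in culture cannot be told apart. Nor do they state that the arrays of a group came from separate cultures, so the p-values measure the spread between these arrays, which may be technical, and 3 arrays per group limit the precision. In such bulk RNA, fewer cells of a type and less RNA per cell cannot be told apart.

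The breakdown of branched-chain amino acids starts with removal of the amino group by the aminotransferases BCAT1 in the cytosol and BCAT2 in mitochondria. The branched-chain ketoacid dehydrogenase complex then commits the carbon skeletons to oxidation. It is switched off by the kinase BCKDK and on by the phosphatase PPM1K. Leucine ends as ketone bodies and acetyl-CoA, isoleucine as acetyl-CoA and propionyl groups, and valine as propionyl groups. A biotin-dependent carboxylase, an epimerase and the cobalamin-dependent methylmalonyl-CoA mutase turn propionyl groups into succinyl-CoA. Adipocytes gain this pathway as they differentiate and can use its carbon to make fat.

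After 12 h of berberine, 15 of the 30 tested genes were lower than with DMSO and 1 was higher. The lowered genes were Bcat2, Bckdhb, Mccc1, Mccc2, Acadsb, Hsd17b10, Acad8, Aldh6a1, Pcca, Mcee, Mmut, Mmachc, Hlcs, Btd and Mlycd, and the raised gene was Mmadhc. Their fitted changes were modest, between 1.15-fold (Aldh6a1) and 1.64-fold (Hlcs). The 15 lowered genes made up 50% of the members tested, against 14.6% of all 12136 genes tested, and 13.7% of all genes were higher. The median change of the 30 was -0.20 on the log2 scale, against -0.0076 over all genes tested. All calls are limma's moderated test with Benjamini-Hochberg adjustment over all genes, at an adjusted p under 0.05. Leaving out 1 array at a time gave between 11 and 16 lowered genes, and 11.3% to 14.6% of all genes were then lower.

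At 6 h, 3 of the 30 genes were lower, Bcat2, Acadsb and Btd, and Mmadhc was higher. Over all genes, 6.98% were lower and 7.24% higher at that time. The median change of the members was -0.11, against 0.01 for all genes. Without DMSO replicate 1, DMSO replicate 2 or berberine 6 h replicate 2, only 2 of these 4 calls were made (Acadsb and Btd). At 3 h limma called 0 of the 30, where 1.9% of all genes were called in either direction. At an unadjusted p under 0.05 there were 5 members (Bcat2, Ppm1k, Acadsb, Hsd17b10 and Btd). The share of all genes at that unadjusted threshold was not counted. The moderated F test, which asks for any difference among the 4 groups, called 13 of the 30, against 25.1% of all genes. That count was 8 without berberine 12 h replicate 1 and 7 without the intensity trend in the variance. Over all genes, leaving out 1 array at a time gave 2340 to 2951 F calls, against 3045 with all arrays.

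**Figure D1:**
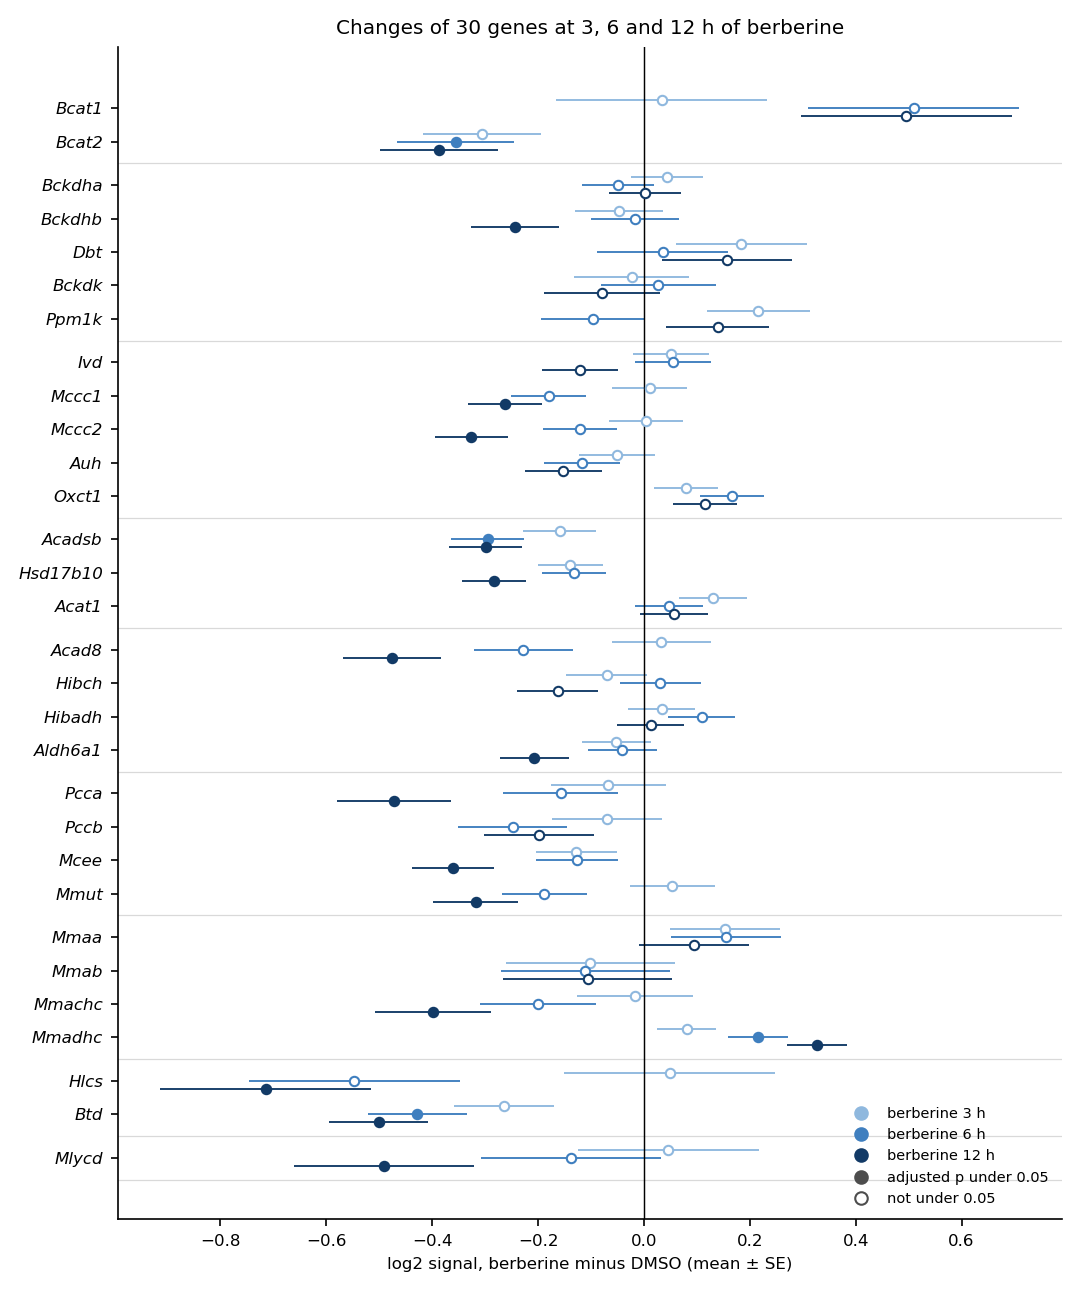
Change of each of the 30 tested genes at 3, 6 and 12 h of berberine relative to DMSO, on the x axis as log2 signal with SE bars (3 arrays per group), with genes down the page in pathway order and grey lines between roles. Filled points mark an adjusted p under 0.05: 15 filled points at 12 h lie left of 0 and 1, Mmadhc, lies right of it.

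Both aminotransferases were above the threshold, and they had changes of opposite sign. Bcat2, the mitochondrial form, had log2 signals of 8.89, 8.92 and 8.79 with DMSO, 8.51, 8.54 and 8.64 at 3 h, 8.53, 8.55 and 8.45 at 6 h, and 8.43, 8.37 and 8.63 at 12 h. Every berberine array lay below every DMSO array. The change was -0.39 ± 0.11 (SE) at 12 h (1.31-fold lower, adjusted p = 0.0138) and -0.36 at 6 h (adjusted p = 0.0391). Without berberine 12 h replicate 2 the 12 h adjusted p was 0.0604, and the 6 h call was lost in 7 of the 12 fits that left out an array. Bcat1, the cytosolic form, had signals of 8.25, 7.65 and 8.09 at 12 h, against 7.65, 7.60 and 7.25 with DMSO. These groups overlap slightly, and the difference of 0.50 ± 0.20 (SE) did not pass (adjusted p = 0.0738, unadjusted 95% interval 0.08 to 0.92).

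Of the 5 genes of the branched-chain ketoacid dehydrogenase and its control, only Bckdhb passed the test at 12 h. Bckdhb, the beta subunit of the decarboxylase, had log2 signals of 12.34, 12.56 and 12.69 at 12 h, against 12.81, 12.63 and 12.88 with DMSO. The groups overlap, and the change was -0.24 ± 0.08 (SE; 1.18-fold lower, adjusted p = 0.036). The call was lost without DMSO replicate 1 (adjusted p = 0.105), DMSO replicate 3 (0.139), berberine 12 h replicate 1 (0.206) or berberine 12 h replicate 2 (0.0651). The partner subunit Bckdha differed by 0.0014 on the log2 scale. Dbt, which encodes the acyltransferase core, the kinase gene Bckdk and the phosphatase gene Ppm1k had 12 h differences of 0.16, -0.08 and 0.14, and none passed.

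In the leucine branch both subunits of the biotin-dependent methylcrotonyl-CoA carboxylase were lower. Mccc1, the subunit that carries biotin, had log2 signals of 12.16, 12.09 and 12.31 with DMSO, 12.24, 12.17 and 12.18 at 3 h, 12.04, 12.04 and 11.94 at 6 h, and 11.79, 12.02 and 11.95 at 12 h. Mccc2, the other subunit, had 11.08, 11.01 and 11.09 with DMSO, 11.09, 11.07 and 11.03 at 3 h, 10.99, 10.87 and 10.97 at 6 h, and 10.63, 10.71 and 10.86 at 12 h. For both subunits the 12 h arrays lay below all DMSO and all 3 h arrays. The changes at 12 h were -0.26 ± 0.07 for Mccc1 (1.20-fold, adjusted p = 0.00959) and -0.33 ± 0.07 for Mccc2 (1.25-fold, adjusted p = 0.00173; both SE). The Mccc1 call was lost without DMSO replicate 3 (adjusted p = 0.0528) or berberine 12 h replicate 1 (0.0639). Auh, the hydratase of the next step, and Oxct1, which activates ketone bodies for use, had differences of -0.15 and 0.12 and did not pass. Ivd, which oxidises isovaleryl-CoA, had -0.12 with the probe set that stands for it (adjusted p = 0.235), and its other probe set differed from that, as described with the probe sets.

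In the isoleucine branch Acadsb and Hsd17b10 were lower. Acadsb, the dehydrogenase for branched short acyl-CoA, had log2 signals of 11.25, 11.19 and 11.09 with DMSO, 11.00, 11.03 and 11.03 at 3 h, 10.82, 10.90 and 10.93 at 6 h, and 10.83, 10.82 and 10.99 at 12 h. All 9 berberine arrays lay below the 3 DMSO arrays, and the change was -0.30 both at 12 h (SE 0.07, 1.23-fold, adjusted p = 0.00317) and at 6 h (adjusted p = 0.00795). The only probe set of Acadsb is of a type that can bind transcripts of several genes. Hsd17b10, a mitochondrial dehydrogenase that also belongs to the enzyme trimming mitochondrial tRNAs, had 12.54, 12.57 and 12.44 at 12 h, against 12.85, 12.84 and 12.72 with DMSO. Those groups do not overlap, and the change was -0.28 ± 0.06 (SE; 1.22-fold lower, adjusted p = 0.00201). Acat1, the thiolase that closes the branch, had a difference of 0.06 with its brightest probe set.

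In the valine branch Acad8 and Aldh6a1 were lower. Acad8, isobutyryl-CoA dehydrogenase, had log2 signals of 9.71, 9.70 and 9.64 with DMSO, 9.86, 9.63 and 9.65 at 3 h, 9.34, 9.59 and 9.44 at 6 h, and 9.21, 9.13 and 9.27 at 12 h. The 12 h arrays lay below all other arrays, by -0.48 ± 0.09 (SE) relative to DMSO (1.39-fold lower, adjusted p = 0.000885). Aldh6a1, which turns the valine semialdehyde into propionyl-CoA, had 13.44, 13.52 and 13.57 at 12 h, against 13.76, 13.72 and 13.67 with DMSO. These groups do not overlap, and the change of -0.21 ± 0.06 (SE; 1.15-fold) had an adjusted p of 0.0235. The Aldh6a1 call was lost without DMSO replicate 1 (adjusted p = 0.0877) or berberine 12 h replicate 1 (0.106). Hibch and Hibadh, the hydrolase and dehydrogenase between these steps, had differences of -0.16 and 0.01 and did not pass.

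Of the 4 genes that carry propionate to succinyl-CoA, 3 were lower at 12 h. Pcca, the biotin-carrying subunit of propionyl-CoA carboxylase, had log2 signals of 11.57, 11.21 and 11.63 with DMSO, 11.38, 11.47 and 11.36 at 3 h, 11.16, 11.52 and 11.26 at 6 h, and 10.91, 10.91 and 11.17 at 12 h. Mcee, the epimerase, had 10.89, 10.91 and 10.79 with DMSO, 10.72, 10.70 and 10.79 at 3 h, 10.77, 10.74 and 10.70 at 6 h, and 10.46, 10.68 and 10.37 at 12 h. Mmut, the cobalamin-dependent mutase, had 12.23, 12.08 and 12.44 with DMSO, 12.33, 12.25 and 12.32 at 3 h, 12.06, 12.14 and 11.97 at 6 h, and 11.85, 11.91 and 12.03 at 12 h. In all 3 genes the 12 h arrays lay below the DMSO arrays. The 12 h changes were -0.47 ± 0.11 for Pcca (1.39-fold, adjusted p = 0.00315), -0.36 ± 0.08 for Mcee (1.28-fold, adjusted p = 0.00185) and -0.32 ± 0.08 for Mmut (1.25-fold, adjusted p = 0.00629; all SE). The other carboxylase subunit, Pccb, had a difference of -0.20 ± 0.10 (SE) with 12 h arrays below the DMSO arrays, and did not pass (adjusted p = 0.173, unadjusted 95% interval -0.42 to 0.02).

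**Figure D2:**
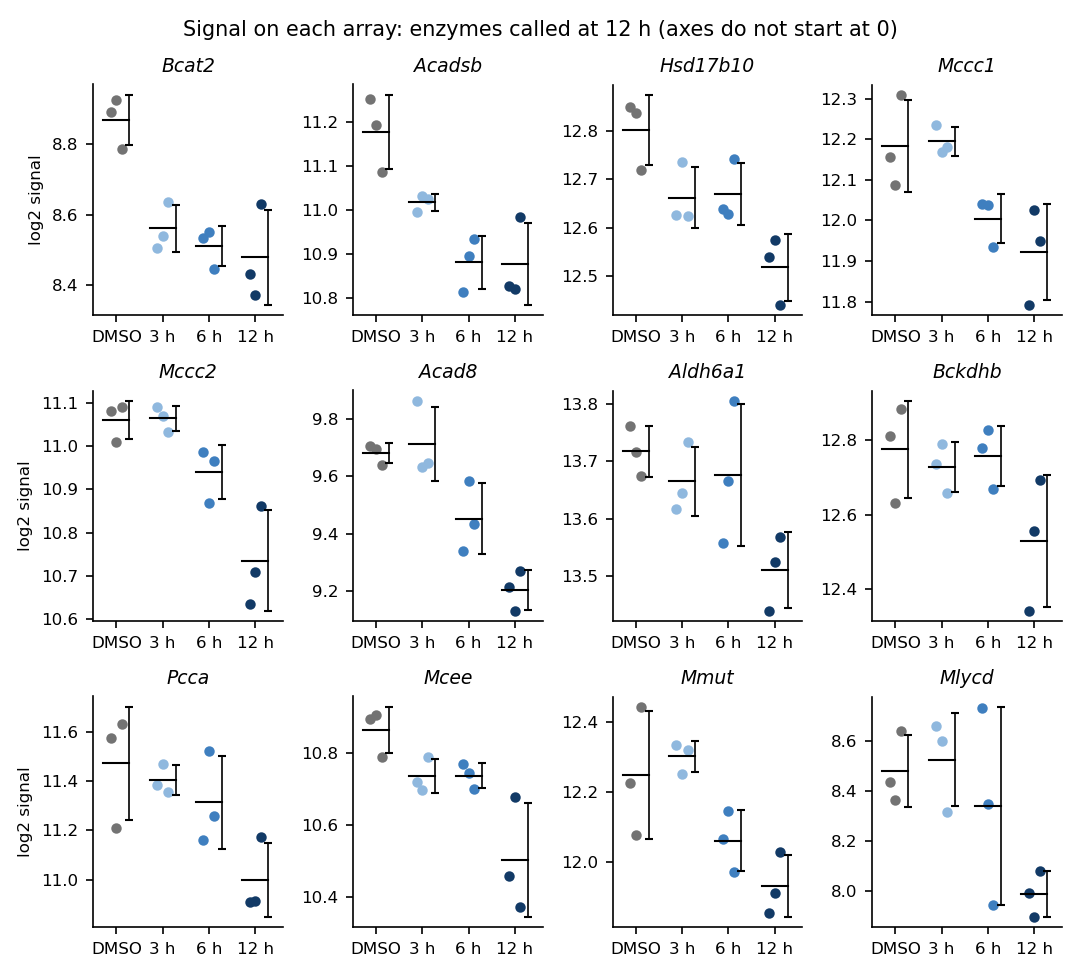
Log2 signal (y axis) on each of the 12 arrays for the 12 enzyme genes lower at 12 h of berberine, with groups along the x axis, the group mean as a line and the SD as a bar (n = 3). In Acad8, Mccc2 and Pcca the 12 h arrays lie below the 3 DMSO arrays, whereas in Bckdhb they overlap them; each axis has its own range and does not start at 0.

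The genes that supply biotin to these carboxylases were both lower at 12 h. Hlcs, the ligase that attaches biotin, had log2 signals of 8.17, 8.51 and 8.93 with DMSO, 8.88, 8.36 and 8.52 at 3 h, 8.20, 7.88 and 7.89 at 6 h, and 7.46, 7.98 and 8.03 at 12 h. Its DMSO arrays were widely spread, and the 12 h arrays lay below all of them (-0.71 ± 0.20 SE, 1.64-fold lower, adjusted p = 0.012). That call was lost without DMSO replicate 3 (adjusted p = 0.0762) or berberine 12 h replicate 1 (0.07). Btd, biotinidase, which frees biotin for reuse, had 9.78, 9.77 and 9.92 with DMSO, 9.52, 9.44 and 9.71 at 3 h, 9.48, 9.31 and 9.40 at 6 h, and 9.40, 9.35 and 9.22 at 12 h. All berberine arrays lay below all DMSO arrays. The change was -0.43 at 6 h (adjusted p = 0.00561) and -0.50 ± 0.09 (SE) at 12 h (1.42-fold lower, adjusted p = 0.000628).

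The 4 cobalamin genes did not move together. Mmachc, which processes incoming cobalamin, had log2 signals of 9.13, 9.32 and 8.94 at 12 h, against 9.55, 9.65 and 9.39 with DMSO. The groups do not overlap, and the change was -0.40 ± 0.11 (SE; 1.32-fold lower, adjusted p = 0.0109), lost without berberine 12 h replicate 3 (0.0608). Mmadhc, which routes cobalamin to its cytosolic and mitochondrial enzymes, had 12.55, 12.53 and 12.65 with DMSO, 12.67, 12.72 and 12.58 at 3 h, 12.80, 12.81 and 12.77 at 6 h, and 12.88, 12.94 and 12.89 at 12 h. Every 6 h and 12 h array lay above every DMSO array, with a change of 0.22 at 6 h (adjusted p = 0.015) and 0.33 ± 0.06 (SE) at 12 h (1.25-fold higher, adjusted p = 0.000265). Its 6 h call was lost without DMSO replicate 1 (adjusted p = 0.06), DMSO replicate 2 (0.0502) or berberine 6 h replicate 2 (0.0552). Mmaa and Mmab, which load the mutase with its cofactor and make that cofactor, had differences of 0.09 and -0.11 and did not pass.

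Mlycd, malonyl-CoA decarboxylase, had log2 signals of 7.99, 7.89 and 8.08 at 12 h, against 8.43, 8.36 and 8.64 with DMSO. The groups do not overlap (-0.49 ± 0.17 SE, 1.41-fold lower, adjusted p = 0.0389). Its call was the weakest of the 16: it was lost without DMSO replicate 1 (adjusted p = 0.0748), DMSO replicate 3 (0.137) or any of the 3 berberine 12 h arrays (0.0793, 0.113 and 0.0527). Over the members, 15 had all 3 berberine 12 h arrays below all 3 DMSO arrays, and 20.3% of all genes tested did. Bckdhb was called with overlap, and Pccb had no overlap and was not called.

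**Figure D3:**
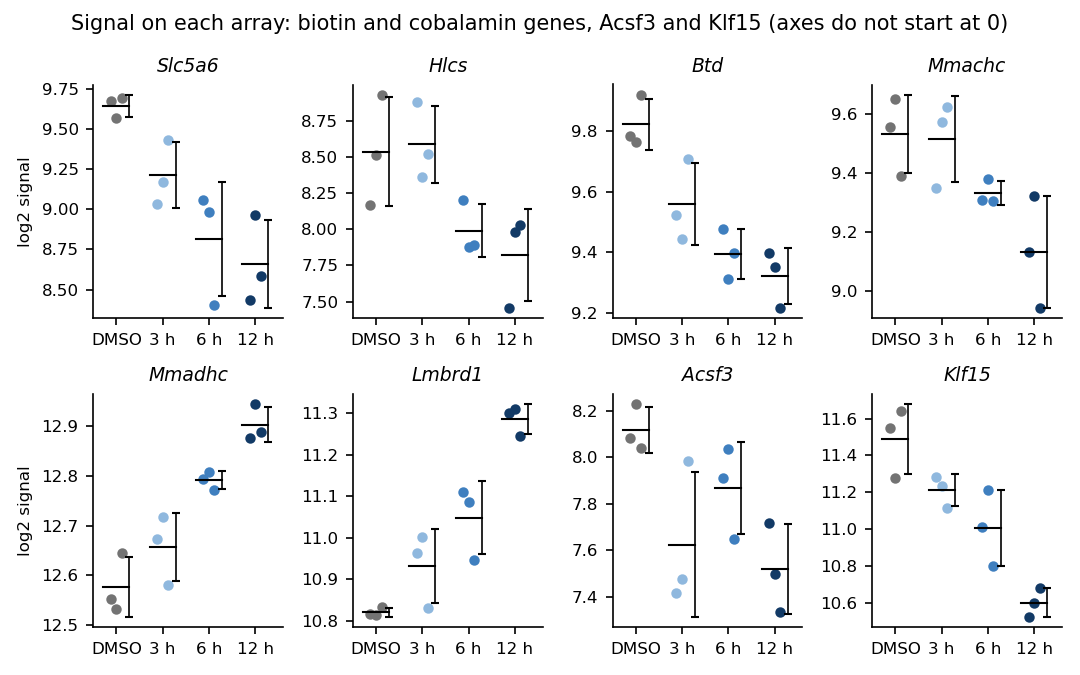
Log2 signal (y axis) on each of the 12 arrays for genes of biotin and cobalamin handling and for Acsf3 and Klf15, with groups along the x axis, the group mean as a line and the SD as a bar (n = 3). Mmadhc and the represented probe set of Lmbrd1 are higher at 12 h than with DMSO and the other 6 genes are lower; each axis has its own range and does not start at 0.

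Berberine times were also compared with each other. The DMSO arrays do not enter these differences, though they enter the pooled spread behind the p-values, and Mcee lost its call without DMSO replicate 1 (adjusted p = 0.0559). At 12 h, 9 of the 30 genes were lower than at 3 h, and Mmadhc was higher, against 9.71% and 8.01% of all genes. The lower genes were Acad8 (-0.51, adjusted p = 0.000912), Mccc2 (-0.33, 0.00264), Mmut (-0.37, 0.00333), Mccc1 (-0.27, 0.0115), Hlcs (-0.76, 0.0123), Pcca (-0.40, 0.0142), Mmachc (-0.38, 0.0213), Mlycd (-0.54, 0.0358) and Mcee (-0.23, 0.0449). Mmadhc was 0.25 higher (adjusted p = 0.00482). The median difference of the members was -0.13, against -0.02 for all genes. The count of 10 depended on single arrays: it was 4 without berberine 12 h replicate 1 and 6 without berberine 3 h replicate 2, and it was 5 without the intensity trend. Between 6 h and 3 h limma called 0 of the 30, against 2.34% of all genes in either direction. Between 12 h and 6 h it also called 0, against 5.69% of all genes. At an unadjusted p under 0.05 there were 7 and 10 members, and the share of all genes at that threshold was not counted.

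For 15 genes more than 1 probe set was kept, so each probe set was also tested on its own. At 12 h, 23 of the 54 kept probe sets were lower and 2 were higher, against 11.8% of all kept probe sets lower. The 23 came from 19 genes, and they were 15 without the intensity trend. The shares of all kept probe sets that were higher, or lower without the trend, were not counted. Over all genes tested, 12.5% were lower without the trend, against 14.6% with it. Ivd showed the clearest disagreement. Its other probe set had log2 signals of 10.66, 10.73 and 10.87 at 12 h, against 11.64, 11.49 and 11.65 with DMSO. These do not overlap (-0.84 ± 0.08 SE, 1.79-fold lower, adjusted p = 1.2e-06), whereas the probe set that stands for Ivd because it was the brighter by a small margin did not pass.

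Hsd17b10, Mccc2 and Acad8 each had a further probe set that was lower, by -0.53 (adjusted p = 0.000736), -0.55 (0.00189) and -0.74 (0.0168). The third probe set of Mccc2 had 0.01, and the dimmer probe sets of Mmut (-0.23, adjusted p = 0.0769) and Mccc1 (-0.24, 0.409) overlapped between groups and did not pass. Acat1 was lower with its other 2 probe sets (-0.27 each, adjusted p = 0.00509 and 0.0192), though not with its brightest. Hibch was lower with its dimmer probe set (-0.48, adjusted p = 0.0305). Mmab was lower with a dim probe set, whose 12 h values of 5.83, 5.60 and 5.50 lay around the threshold, against 6.88, 6.75 and 7.24 with DMSO. Setting values below the threshold to the threshold makes this at least 2.24-fold lower. The limma adjusted p of 0.00152 belongs to the values before that step. Auh had 1 probe set that was higher (0.61, adjusted p = 0.0458). Calling a gene by its brightest probe set therefore left out Ivd, Acat1, Hibch and Mmab among genes with a lowered probe set. Which probe set represents the transcript of each gene was not tested.

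**Figure D4:**
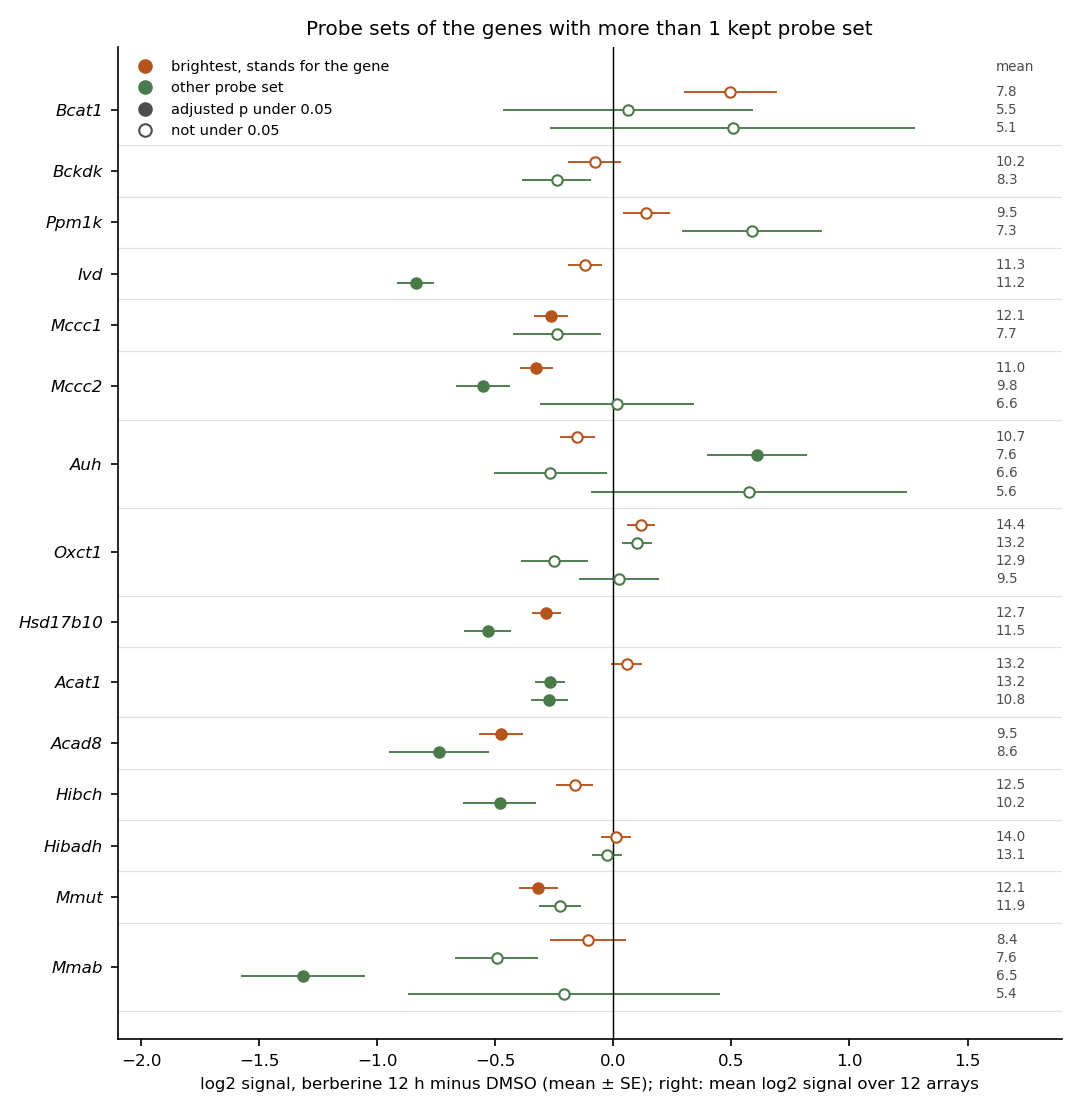
Change at 12 h of berberine relative to DMSO (x axis, log2 signal, with SE bars, n = 3 per group) of each kept probe set of the 15 genes that had more than 1, with the mean log2 signal over the 12 arrays at the right. In Ivd the brighter probe set lies at -0.12 and the other at -0.84; in Acat1 the brightest lies at 0.06 and the other 2 at -0.27.

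Genes of the same pathways outside the 31 were counted from a list, of which 21 were tested here. At 12 h 8 of the 21 were lower and 2 higher, with a median of -0.23. These are 38.1% lower and 9.52% higher, against 14.6% and 13.7% of all genes. That list was also chosen with earlier results of these data known, so its shares are a description. At 6 h 3 were lower and 1 higher, against 6.98% and 7.24% of all genes, and at 3 h 0 were called. Slc5a6, which encodes a carrier that takes biotin into cells, had log2 signals of 8.43, 8.96 and 8.58 at 12 h, against 9.67, 9.56 and 9.69 with DMSO. It was 1.97-fold lower, without overlap (-0.98 ± 0.16 SE, adjusted p = 0.0002). Klf15, a transcription factor known in mouse liver and muscle for driving branched-chain amino acid breakdown, had 10.53, 10.60 and 10.68 at 12 h, against 11.55, 11.28 and 11.64 with DMSO. It was 1.85-fold lower, also without overlap (-0.88 ± 0.10 SE, adjusted p = 4.2e-06). Acsf3, a mitochondrial enzyme that activates malonate, was lower (-0.60 ± 0.18 SE, adjusted p = 0.0189), with the call lost without DMSO replicate 2 (0.0676) or berberine 12 h replicate 3 (0.0742).

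Hadhb, a subunit of the trifunctional protein of fatty acid oxidation, and Aldh2, a mitochondrial aldehyde dehydrogenase, were lower by -0.39 ± 0.06 (adjusted p = 0.00017) and -0.30 ± 0.06 (0.0022; both SE). Neither passed with the mean of its probe sets (-0.23, adjusted p = 0.25, for Hadhb and -0.20, 0.457, for Aldh2). Tested on its own, another bright probe set of Hadhb was lower (-0.32, adjusted p = 0.014), and a dim one near the threshold had 0.03. The other probe sets of Aldh2, all dimmer, had -0.55, -0.13, -1.01 and 0.97, of which only -1.01 passed (adjusted p = 0.0148). Lmbrd1, which helps cobalamin leave lysosomes, was higher with its brightest probe set (0.47 ± 0.07 SE, adjusted p = 4.8e-05). Another of its probe sets was lower (-0.63, adjusted p = 0.0083), and the mean of its probe sets was -0.18, so no direction is given for the gene.

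The summed level of adipocyte markers overlapped between each berberine time and DMSO. Of 12 listed, 10 were tested, and their summed linear signal was 179000 to 226000 on DMSO arrays, 202000 to 228000 at 3 h, 217000 to 240000 at 6 h and 192000 to 211000 at 12 h. A sum of linear signals is set mostly by its brightest genes, so it can hide changes of dimmer ones. Single markers did change. At 12 h 5 of the 10 were lower and 1 higher, against 14.6% and 13.7% of all genes. They are named here after their values were seen. Cidec (-1.44, adjusted p = 1.6e-10), Cebpa (-0.59, 1.4e-05), Retn (-0.51, 0.0018), Lep (-2.06, 0.0227) and Slc2a4 (-0.31, 0.0396) were lower. Lpl was higher (0.32, adjusted p = 0.0153). The 12 h mean of Lep, 4.92, lay under the threshold. At 6 h 2 were lower and 4 higher, against 6.98% and 7.24%. At 3 h 1 was lower, Cidec (-0.29, adjusted p = 0.0365), against 1.9% of all genes called in either direction. Of the fibroblast markers, 9 of 10 were tested, with a sum of 108000 to 113000 at 12 h against 93000 to 110000 with DMSO, and 2 higher and 2 lower. Of the macrophage markers, 4 of 7 were tested (sum 928 to 1180 at 12 h, 767 to 954 with DMSO), and Adgre1, Ptprc and Itgam lay under the threshold. The 1 macrophage marker called was Cd14, named after its values were seen, which was higher at 12 h (0.38, adjusted p = 0.0076, no overlap) and at 6 h (0.34, adjusted p = 0.029). Endothelial Pecam1, Cdh5, Tek and Vwf also lay under it. The part of these markers in the changes of the 31 genes was not tested. Across the genes tested, arrays of one group correlated at 0.968 to 0.976 and arrays of different groups at 0.956 to 0.974.

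The 300 bases around the start sites of the 15 genes lower at 12 h were searched for letters that known factors bind. These windows held 250 bases before and 50 after the start site (RefSeq, GRCm38.p6). Windows were given for 26 of the 31 genes, and 14 of the 15 lowered genes had 20 windows. A gene with several windows counts more than once, and the set of all windows was not limited to the genes tested here. The letters CCAAT, on either strand, stood in 65.0% of the lowered genes' windows, against 37.4% of all 32851 windows. The GC box letters GGGCGG stood in 60.0% against 35.7%, and CACCC in 80.0% against 57.5%. AGGTCA, the core of nuclear receptor sites, stood in 25.0% against 16.3%, and CACGTG in 5.0% against 7.15%. TTGCATC, a form of the ATF4 and C/EBP element, stood in 5.0% against 2.53%. Over all 34 windows of the members, which include these 20, the shares were 55.9% for CCAAT and for GGGCGG and 73.5% for CACCC. They were 23.5% for AGGTCA, 2.94% for CACGTG and 5.88% for TTGCATC. Whether the lowered genes differ from the other members in these letters was not tested. The motifs do not exclude each other, and a match is a description of these letters, with no test of binding.

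The windows of Btd, Acad8 and Mcee are shown because they had the lowest 12 h adjusted p among lowered members whose call held in every setting. Capitals mark the CCAAT box, the GC box and the CACCC box on either strand. They lie at chr14:31640807-31641106 on the plus strand for Btd, at chr9:26999500-26999799 on the minus strand for Acad8, and at chr7:64392372-64392671 on the plus strand for Mcee.
Btd: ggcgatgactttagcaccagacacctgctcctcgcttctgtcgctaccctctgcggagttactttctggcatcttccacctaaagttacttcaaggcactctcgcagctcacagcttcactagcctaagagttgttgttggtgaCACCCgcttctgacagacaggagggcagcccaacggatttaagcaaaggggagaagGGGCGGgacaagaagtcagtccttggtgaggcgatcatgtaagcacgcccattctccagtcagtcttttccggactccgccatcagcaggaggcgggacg
Acad8: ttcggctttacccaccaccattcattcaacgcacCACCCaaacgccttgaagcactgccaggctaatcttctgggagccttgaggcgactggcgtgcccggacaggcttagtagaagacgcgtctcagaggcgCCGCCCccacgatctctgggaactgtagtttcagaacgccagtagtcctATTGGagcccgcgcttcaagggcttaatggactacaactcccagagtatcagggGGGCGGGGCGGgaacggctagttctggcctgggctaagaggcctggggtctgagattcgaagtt
Mcee: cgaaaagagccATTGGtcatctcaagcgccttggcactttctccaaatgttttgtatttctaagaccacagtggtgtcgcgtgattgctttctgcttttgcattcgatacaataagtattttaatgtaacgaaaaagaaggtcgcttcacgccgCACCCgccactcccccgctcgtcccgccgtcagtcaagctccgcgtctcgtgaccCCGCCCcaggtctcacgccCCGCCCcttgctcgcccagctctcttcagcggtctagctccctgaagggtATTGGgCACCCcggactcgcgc
The Btd window holds a GC box at -50 and CACCC at -106, counted to the base before the start site as -1. Acad8 holds CCAAT at -68, GC boxes at -117, -14 and -9 and CACCC at -216. Mcee holds CCAAT at -239 and 29, GC boxes at -41 and -22 and CACCC at -96 and 35.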

How the data were processed

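The deposited values are log2 signals of single-colour Affymetrix arrays, 1 column per array, made with MAS5 per the submitters' processing notes, which give no version. On each array the linear signal had a 2% trimmed mean of 500.004, so arrays had been scaled to a common level, which leaves biases that depend on brightness. Detection calls and scanner files were not used here.

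The detection threshold was the median log2 value of all non-control probe sets, 5.77 (linear signal 54.6), so it gives no detection rate. Probe sets reaching it on at least 3 of 12 arrays were kept. A gene was represented by its brightest kept probe set, by one ending in _x_at only where it had no other. limma 3.58.1 in R 4.3.3 was fitted to 12136 genes over all 12 arrays (a mean per group, intensity trend, two-sided) with Benjamini-Hochberg adjustment. It was checked on simulated data. A fold change is 2 to the power of the size of the fitted log2 difference. Figures used Python 3.11.15 and matplotlib 3.10.9.

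The 31 genes and the other lists were chosen with earlier results of these data known. Members called in any comparison are named, and up to 6 other pathway genes with the largest called change at 12 h. Deviations from the group means of same-numbered DMSO and berberine arrays correlated at -0.0368 to 0.0162, so the numbers were not taken to pair samples. Same-numbered arrays of different berberine times were not compared in this way. Alternatives were quantile normalization, no intensity trend, the mean of a gene's probe sets, no filter, a stricter filter, dim values raised to the threshold, a fit of only the groups compared, a replicate block, and leaving out each array.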

Additional observations from a re-analysis of the deposited data

Results flagged for a closer look

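The following genes differed between berberine times in a direct test of 12 h against 3 h, so their changes relative to DMSO differed between these times. Lower at 12 h than at 3 h on the log2 scale were Hlcs (-0.76), Mlycd (-0.54), Acad8 (-0.51), Pcca (-0.40), Mmachc (-0.38), Mmut (-0.37), Mccc2 (-0.33), Mccc1 (-0.27) and Mcee (-0.23). Mmadhc was higher (0.25). When each of the 12 arrays was left out in turn, the call was lost 9 times for Mcee, 5 times for Mlycd, 4 times for Mmachc, 3 times for Pcca, 2 times for Hlcs and 1 time for Mccc1. No explanation was tested.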

How the results depend on the processing

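The count of 15 genes lower at 12 h was between 11 and 16 in all settings tried, and 7 of the 15 kept their call in all 20 settings (Acadsb, Hsd17b10, Acad8, Pcca, Mcee, Mmut and Btd), as did the raised Mmadhc. Over all genes, the share lower at 12 h ran from 8.86% with no filter to 18.1% with the stricter filter. Mlycd lost its call in 10 of the 20 and Bckdhb in 8. The mean of a gene's probe sets also gave 15 lower genes, 12 of them shared, with Bckdhb, Mccc2 and Mlycd lost and Ivd, Acat1 and Hibch gained; it called 1 member between 12 h and 6 h and turned Lmbrd1 to -0.18. Without the intensity trend, 12 h against 3 h had 5 called members (4 lower), the F test 7 and the members' probe sets 15 lower. The cause of these shifts was not tested. Over all genes, dropping the trend gave 93 calls at 3 h, 60 between 6 h and 3 h and 296 between 12 h and 6 h, against 231, 284 and 690; the mean of probe sets gave 114 at 3 h, 1099 at 6 h and 146 between 6 h and 3 h, against 231, 1726 and 284. Leaving out each array gave 12 to 17 called members at 12 h (11 to 16 lower, 1 to 2 higher), 2 to 4 at 6 h (2 to 3 lower, 0 to 2 higher), 0 to 0 at 3 h and between 6 h and 3 h, 0 to 1 between 12 h and 6 h, 4 to 10 for 12 h against 3 h (3 to 9 lower, 1 to 1 higher) and 8 to 14 by the F test. Over all genes these fits called 2683 to 3439 at 12 h and 1116 to 1771 at 6 h. With all arrays the counts were 3426 and 1726. For 12 h against 3 h the fits with an array left out called 1599 to 2225, and by the F test 2340 to 2951. With all arrays these were 2150 and 3045. With each array left out, the median change of the members lay at -0.23 to -0.18 at 12 h, -0.12 to -0.08 at 6 h, -0.027 to 0.019 at 3 h and -0.16 to -0.12 for 12 h against 3 h. With the replicate number as a block, 15 members were lower at 12 h and the 6 h call of Bcat2 was lost (adjusted p = 0.0555). That Bcat2 call was also lost with no filter (0.0641), dim values raised to the threshold (0.0549) or only the groups compared (0.0616). Dim probe sets such as that of Mmab lie near the threshold and give only bounds.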
